A study of Mus musculus with 18 samples.

Results

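This section compares the loss of 2 related transcription factors in mouse liver. The quantity is a difference of effects: the change from control in livers without Nrf1, minus the change from control in livers without Nrf2. It uses 12 of the 18 arrays of the series, 3 in each of 4 groups, and all are livers of female mice aged 6 weeks. The Nrf1 CKO mice had the genotype Nrf1(dN/-)::Alb-Cre, in which Cre is driven by the albumin promoter and so acts in hepatocytes, and their controls were Nrf1(dN/+) with no Cre named. Both Nrf1 groups were of mixed strain and both carry the dN allele. The Nrf2 KO mice were Nrf2(-/-), a genotype not limited to a cell type, and their controls were Nrf2(+/+), both on C57BL/6. Strain, control genotype and the reach of the deletion therefore differ between the lines and cannot be told apart from the factor lost. The 6 other arrays of the series, Keap1 KD with genotype Keap1(Kd/-) and Keap1 Control with Keap1(Kd/+), both of mixed strain and of the same sex and age, entered the fit for its error and its slide links, and their own effect is given once for genes lower without Nrf2.

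NRF1 (gene Nfe2l1) and NRF2 (gene Nfe2l2) are CNC-family bZIP proteins that bind DNA as partners of small MAF proteins. Both recognise the antioxidant response element. NRF2 is held in the cytoplasm by KEAP1 and, when released, raises detoxifying and antioxidant enzymes. NRF1 is anchored in the endoplasmic reticulum, is processed on release, and is known for the genes of the proteasome and for keeping the liver free of steatohepatitis.

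The shared element has the core TGACNNNGC, and 5 gene starts that hold it are shown because their genes went different ways in the comparison: the proteasome genes Psmb6 and Psmd9 fell without Nrf1, Srxn1 rose without Nrf1, Keg1 fell without Nrf2, and Srsf3 moved oppositely. Each run is 250 bases before to 50 bases after the start, 5′ to 3′ on the plus strand, from RefSeq on GRCm38.p6, with the core on either strand in capitals. The regions are chr11:70525107-70525406, chr5:123227940-123228239, chr2:152105274-152105573, chr19:12695540-12695839 and chr17:29032410-29032709.
Psmb6: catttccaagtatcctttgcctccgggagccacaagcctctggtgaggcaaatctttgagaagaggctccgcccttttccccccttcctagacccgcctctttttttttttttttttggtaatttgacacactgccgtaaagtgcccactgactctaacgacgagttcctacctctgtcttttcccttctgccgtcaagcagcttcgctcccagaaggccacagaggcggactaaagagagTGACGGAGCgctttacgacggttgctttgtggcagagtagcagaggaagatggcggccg
Psmd9: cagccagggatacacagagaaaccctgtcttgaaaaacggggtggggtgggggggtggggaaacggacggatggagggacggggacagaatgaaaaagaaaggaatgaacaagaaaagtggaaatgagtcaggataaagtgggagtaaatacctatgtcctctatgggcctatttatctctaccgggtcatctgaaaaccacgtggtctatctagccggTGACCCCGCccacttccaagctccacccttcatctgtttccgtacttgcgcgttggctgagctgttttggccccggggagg
Srxn1: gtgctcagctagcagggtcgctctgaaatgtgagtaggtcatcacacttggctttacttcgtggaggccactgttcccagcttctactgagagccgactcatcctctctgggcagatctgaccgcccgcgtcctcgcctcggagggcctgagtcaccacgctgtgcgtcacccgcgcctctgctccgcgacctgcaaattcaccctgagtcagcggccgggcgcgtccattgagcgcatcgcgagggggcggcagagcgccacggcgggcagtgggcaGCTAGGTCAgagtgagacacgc
Keg1: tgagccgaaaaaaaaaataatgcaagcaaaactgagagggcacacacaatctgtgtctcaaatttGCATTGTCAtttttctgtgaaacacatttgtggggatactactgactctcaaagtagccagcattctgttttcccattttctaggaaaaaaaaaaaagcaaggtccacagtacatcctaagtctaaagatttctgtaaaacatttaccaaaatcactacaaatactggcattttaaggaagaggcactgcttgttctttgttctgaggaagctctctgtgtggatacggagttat
Srsf3: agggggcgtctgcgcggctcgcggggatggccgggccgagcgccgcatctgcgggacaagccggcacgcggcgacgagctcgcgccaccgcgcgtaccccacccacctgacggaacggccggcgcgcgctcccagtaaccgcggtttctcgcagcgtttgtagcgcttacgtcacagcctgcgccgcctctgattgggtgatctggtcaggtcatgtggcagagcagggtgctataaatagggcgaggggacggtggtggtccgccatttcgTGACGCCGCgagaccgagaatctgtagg
The core was found in 16.7% of the 10299 tested genes with such a window, in 12.4% of all 32851 windows of the table, in 15.8% of 355 genes called higher and 14.8% of 297 genes called lower in the difference. It was found in 7 of 31 proteasome genes. The window of Nqo1, of Aox1 and of Psma5 held no match, which says only that these letters are not in that stretch.

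Levels below are log2 processed signal minus the array's own 75th percentile, so a level is relative to its array and levels are compared within a gene only. A gene is called when the adjusted p of limma's fit, Benjamini-Hochberg over all 17721 genes tested, is under 0.05. Of the non-control spots, 51.3% to 60.1% were well above background on the 12 arrays, none were saturated, and arrays of a group correlated at 0.98 to 0.991. The 75th percentile signal was 194 to 252 on the Nrf1 Control arrays and 305 to 403 on the Nrf1 CKO arrays, which do not overlap, and 273 to 354 on the Nrf2 arrays. Array Nrf1 CKO 1 stood nearest to the Nrf1 Control mean for 83.7% of 3346 genes called in the Nrf1 effect, with a median change of 0.61 against 1.04 and 1.13 on the other 2 arrays. The 2 lines share no slide: all Nrf1 CKO arrays lay on a slide with Nrf1 Control 3, and the Nrf2 KO arrays shared neither slide nor scan date with their controls. With slide as a fixed block the Nrf1 effect thus has Nrf1 Control 3 as its 1 control array. Such a fit links the Nrf2 groups only through Keap1 arrays, and no value of the difference within a slide exists. A call lost in that fit cannot be told apart from lost precision. Whether a group's 3 samples came from separate animals is not in the labels, and the tests rest on their spread alone, which may be technical.

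Each targeted gene was lowest in the group labelled for its loss. The levels are of whole liver, and which cells lost Nfe2l1 was not tested. Nfe2l1 read 3.93, 3.65 and 3.59 on the Nrf1 Control arrays, was not well above background on any Nrf1 CKO array, and read 4.35, 4.48 and 4.27 in Nrf2 Control and 4.52, 4.19 and 4.41 in Nrf2 KO livers. It was at least 469-fold lower in Nrf1 CKO livers (limma adjusted p = 5.88e-15), and Nrf2 loss left it with an adjusted p of 0.995. Nfe2l2 read 3.58, 3.52 and 3.70 in Nrf1 Control, 4.06, 4.32 and 4.45 in Nrf1 CKO, 3.30, 3.52 and 3.13 in Nrf2 Control, and -5.90, -5.59 and -3.16 in Nrf2 KO livers, where 1 of 3 arrays was well above background. Its difference of effects was 8.88 ± 0.67 (SE), made of a change of 0.68 without Nrf1 that was not called (adjusted p = 0.331) minus one of -8.20 without Nrf2 that rests in part on values below background.

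Many more genes passed the test after Nrf1 loss than after Nrf2 loss. The Nrf1 effect was called for 3348 genes (18.9%), 1416 higher (7.99%) and 1932 lower (10.9%), and the Nrf2 effect for 11 (0.0621%), 1 higher (0.00564%) and 10 lower (0.0564%); at an unadjusted p under 0.05 the Nrf2 effect had 1576. The effect was at least 2-fold in either direction for 2145 genes with Nrf1 loss and 519 with Nrf2 loss, and its SD across genes was 0.715 against 0.405. Of the 11 genes called with Nrf2 loss, 2 were also called with Nrf1 loss: Ces1f, lower in both, and Srsf3, in opposite directions. That is 18.2% of the Nrf2 calls, near the 18.9% of all genes called with Nrf1 loss. It is 0.0597% of the Nrf1 calls, near the 0.0621% of all genes called with Nrf2 loss. The Nrf1 and Nrf2 comparisons share no array, and across genes their effects had a Pearson r of -0.0687, a description over genes that share arrays and are not independent.

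The difference itself was called for 988 genes (5.58%), 533 higher (3.01%) and 455 lower (2.57%), with a median of -0.09 over all genes. Higher means that the gene stood higher after Nrf1 loss than after Nrf2 loss, each relative to its own control. Of the 3346 genes called with Nrf1 loss alone, 866 (25.9%) were called in the difference; for the others the test did not separate the effects. All 9 genes called with Nrf2 loss alone were called in the difference. Another 112 genes were called in the difference with neither single effect called. By the sizes of the single effects, 611 of the 988 genes were on the Nrf1 side, meaning called with Nrf1 loss and with an Nrf2 effect that was not called and under 0.5; 286 of these were higher and 325 lower without Nrf1. Another 7 were on the Nrf2 side by the mirrored rule, 1 was opposed with both effects called, and 369 fell in none of these. Since the single effects define these groups, the values given for their members describe them.

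**Figure D1:**
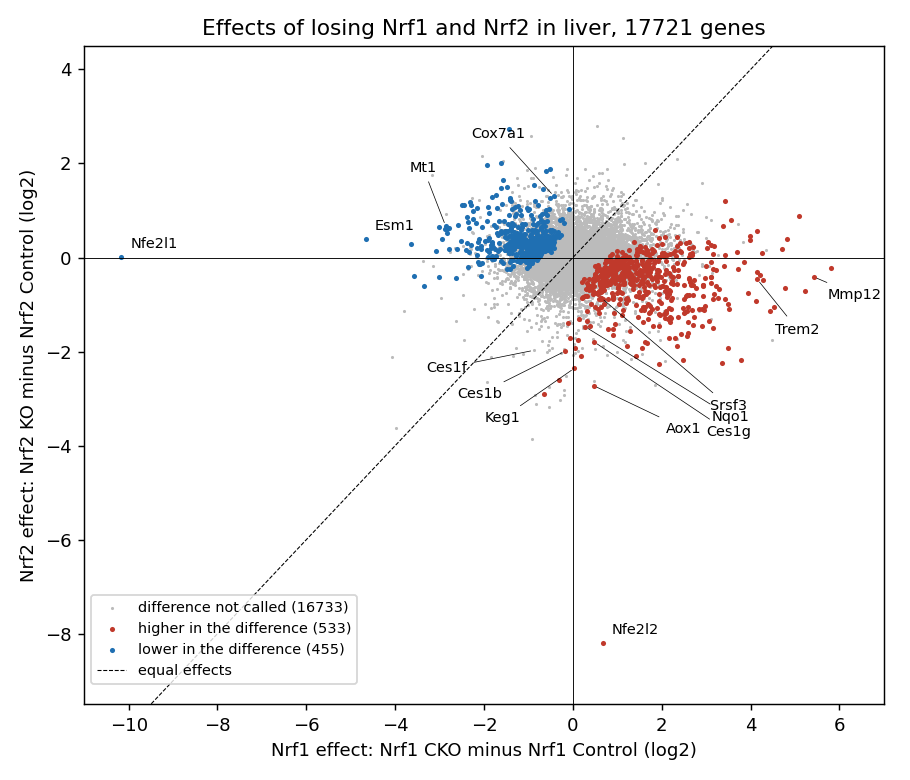
Effect of Nrf1 loss (x axis, log2, Nrf1 CKO minus Nrf1 Control) against effect of Nrf2 loss (y axis, log2, Nrf2 KO minus Nrf2 Control), 1 point per gene, 17721 genes, with the 533 genes higher in the difference in red, the 455 lower in blue and the line of equal effects dashed. The coloured points spread farther along x than along y; Nfe2l2, Aox1 and Keg1 are set apart along y, and Nfe2l1 and Mmp12 along x.

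The count depended on how slides entered the fit and on single arrays. With slide as a fixed block 8 genes were called, 3 of them among the 988 (Nfe2l1, Nfe2l2 and Mmp12), while 987 of the 988 kept their sign and 829 their size within 1.5 times. With scan date as a fixed block 201 were called. Of the 68 called genes named by rule, 65 lost the call with slide and 46 with scan date. Leaving out 1 array gave 294 genes without Nrf1 CKO 3, 334 without Nrf1 CKO 2, 348 without Nrf1 Control 1, 388 without Nrf2 KO 1, 419 without Nrf2 KO 3, 420 without Nrf2 Control 3, 556 without Nrf2 KO 2, 592 without Nrf1 Control 2, 650 without Nrf2 Control 1 and 2131 without Nrf1 CKO 1.

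On the Nrf2 side stood enzymes that oxidise, reduce or hydrolyse drugs and lipids, which fell without Nrf2 and stayed near control without Nrf1. Aox1, an aldehyde oxidase, read 3.62, 3.48 and 3.77 in Nrf1 Control, 3.85, 4.26 and 4.16 in Nrf1 CKO, 3.78, 3.18 and 3.13 in Nrf2 Control, and 0.48, 0.80 and 0.64 in Nrf2 KO livers. All Nrf2 KO arrays lay below the other 9. Its Nrf2 effect was -2.73 (limma adjusted p = 1.2e-05), its Nrf1 effect 0.47 (adjusted p = 0.144) and the difference 3.19 ± 0.31 (SE; adjusted p = 0.000115).

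The quinone reductase Nqo1, the textbook NRF2 target, read 1.39, 1.35 and 1.07 in Nrf1 Control, 1.17, 1.45 and 2.01 in Nrf1 CKO, 0.65, 0.67 and 0.09 in Nrf2 Control, and -1.24, -0.89 and -0.87 in Nrf2 KO livers. The Nrf1 groups overlapped and the Nrf2 groups did not. Its effects were 0.27 without Nrf1 and -1.47 without Nrf2, a difference of 1.74 ± 0.35 (SE; limma adjusted p = 0.0132).

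Carboxylesterases, which hydrolyse esters and amides, shared this pattern in part. Ces1g read 5.05, 5.19 and 4.76 in Nrf1 Control, 6.02, 5.24 and 5.17 in Nrf1 CKO, 5.80, 6.07 and 5.55 in Nrf2 Control, and 4.01, 3.82 and 4.19 in Nrf2 KO livers, with a difference of 2.27 ± 0.32 (SE; limma adjusted p = 0.00227). Ces1b read 4.75, 4.45 and 4.67 in Nrf1 Control, 4.46, 4.61 and 4.29 in Nrf1 CKO, 4.0, 4.42 and 4.06 in Nrf2 Control, and 2.13, 2.12 and 2.26 in Nrf2 KO livers, with a difference of 1.82 ± 0.23 (SE; adjusted p = 0.00101). For both genes the Nrf2 KO arrays were the lowest and the Nrf1 groups overlapped. Ces1f, their neighbour in name, instead fell in both lines: 7.11, 6.75 and 6.89 against 5.95, 6.21 and 5.98 in the Nrf1 line, and 7.0, 6.88 and 6.46 against 4.39, 4.97 and 5.06 in the Nrf2 line. Its effects were -0.87 without Nrf1 and -1.97 without Nrf2, and their difference of 1.10 was not called (adjusted p = 0.0592). The Ces1 genes are near-identical copies, so their probes may share signal.

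Keg1, named for its expression in kidney, was at 3.53, 3.83 and 3.30 in Nrf1 Control, 3.60, 3.69 and 3.46 in Nrf1 CKO, 4.94, 4.26 and 4.32 in Nrf2 Control, and 1.68, 2.51 and 2.25 in Nrf2 KO livers. The Nrf1 groups overlapped throughout, and the difference was 2.39 ± 0.46 (SE; limma adjusted p = 0.0113). Cox7a1, a subunit of cytochrome c oxidase, was the single gene of the group that rose without Nrf2: 2.57, 2.09 and 2.11 in Nrf2 Control against 3.45, 3.60 and 3.65 in Nrf2 KO livers. In the Nrf1 line it read 2.19, 2.34 and 2.46 in control and 2.21, 1.69 and 1.79 in CKO livers, and the difference was -1.74 ± 0.28 (SE; adjusted p = 0.00619). The remaining member of the group is a probe without a gene symbol here.

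These calls of the difference stood without any single array but not with slide as a fixed block. Those of Keg1 (1.96) and Nqo1 (1.22) were not kept with scan date either (limma adjusted p = 0.195 and 0.264). With slide, the adjusted p was 0.0682 for Aox1, 0.108 for Cox7a1, 0.174 for Ces1g, 0.204 for Ces1b, 0.312 for Keg1 and 0.407 for Nqo1; the blocked differences were 3.31, -2.40, 2.41, 1.56, 2.13 and 1.27, and the Nrf2 effect of Nqo1 was -0.80 (adjusted p = 0.748). In the Keap1 line, outside the difference of effects, the 6 genes lower without Nrf2 had effects of Keap1 lowering above 0 in 6 of 6 cases, and 3 were called higher, Aox1, Ces1g and Nqo1, where 0.948% of all genes were; Cox7a1 was called lower, as were 4.58% of all genes. In either direction 5.52% were called in that line. With scan date as a fixed block the Nrf2 effect itself stayed called for Aox1 (-3.1, limma adjusted p = 0.0131). It was not called for Ces1b (-1.82, 0.098), Cox7a1 (1.82, 0.168), Ces1g (-1.77, 0.407), Keg1 (-1.92, 0.558) or Nqo1 (-0.94, 0.679).

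**Figure D2:**
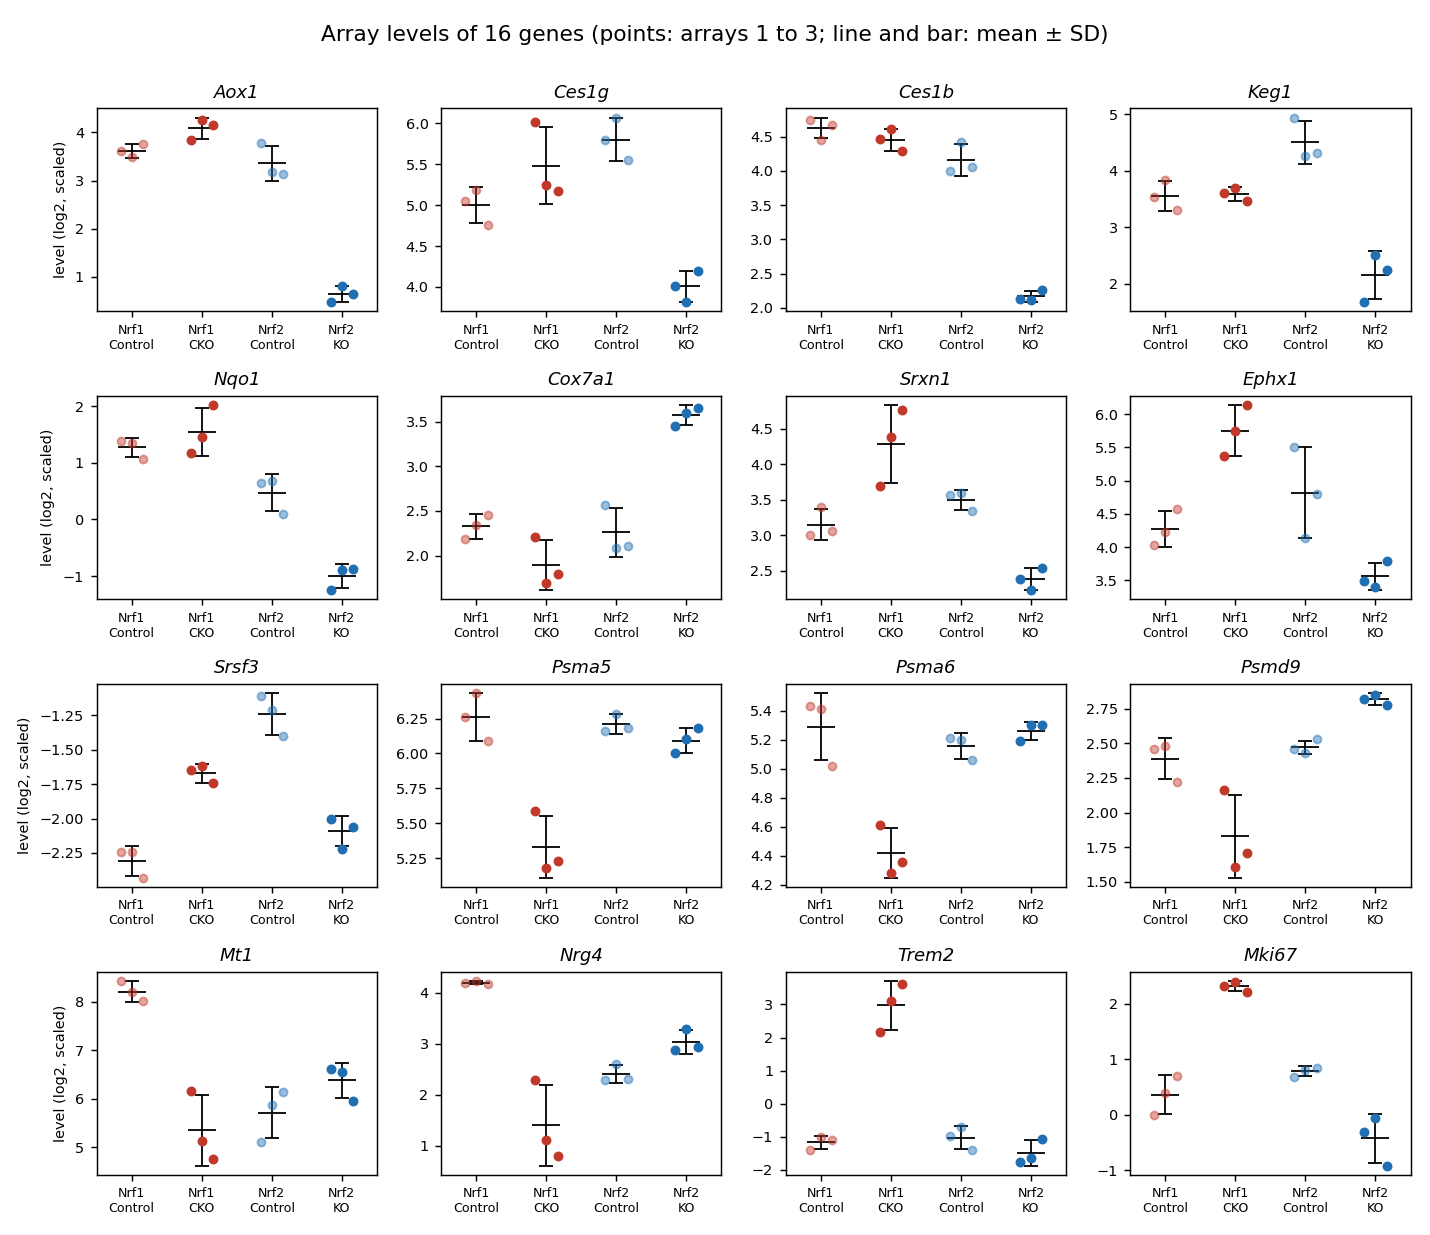
Level on each array (y axis, log2 processed signal minus the array's 75th percentile) of 16 genes in the 4 groups, with the 3 arrays of a group as points and their mean ± SD as line and bar. Aox1, Ces1g, Ces1b, Keg1 and Nqo1 are lowest in Nrf2 KO, the proteasome genes Psma5 and Psma6 are lowest in Nrf1 CKO, and Srsf3 moves in opposite directions. Each panel has its own y range.

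Srxn1, of the fixed set, and Ephx1, named by the list rule, rose without Nrf1 and had Nrf2 effects below 0 that were not called. They were set together here after their values were seen. Srxn1, sulfiredoxin, which reactivates peroxiredoxins, read 3.0, 3.40 and 3.06 in Nrf1 Control, 3.69, 4.38 and 4.77 in Nrf1 CKO, 3.56, 3.59 and 3.34 in Nrf2 Control, and 2.38, 2.23 and 2.53 in Nrf2 KO livers. Neither pair of groups overlapped. It rose by 1.13 without Nrf1 (limma adjusted p = 0.00825), its Nrf2 effect was -1.12 (adjusted p = 0.18), and the difference was 2.24 ± 0.35 (SE; adjusted p = 0.00508). The difference was not called with scan date as a fixed block (2.28, adjusted p = 0.0733) or with slide (2.27).

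Ephx1, the microsomal epoxide hydrolase, read 4.03, 4.23 and 4.57 in Nrf1 Control, 5.37, 5.74 and 6.13 in Nrf1 CKO, 5.51, 4.14 and 4.80 in Nrf2 Control, and 3.49, 3.40 and 3.79 in Nrf2 KO livers. Again neither pair overlapped, with effects of 1.47 and -1.26 and a difference of 2.73 ± 0.44 (SE; limma adjusted p = 0.00577). That difference was called with scan date as a fixed block (3.36, adjusted p = 0.036) but not with slide (2.96). Ces2e, a carboxylesterase of the second family, differed by 1.79 ± 0.29 (SE; adjusted p = 0.00577), with effects of 1.48 and -0.31; in the Nrf1 line it read 4.19, 3.61 and 4.43 in control and 5.36, 5.61 and 5.70 in CKO livers. Blocking on slide left a difference of 0.85 (adjusted p = 0.474) and on scan date one of 1.25 (0.159), where the Nrf2 effect was 0.28 and 0.23. Ugt2b35, a glucuronosyltransferase, had effects of 0.90 and -1.65, neither called, but a called difference of 2.55 (adjusted p = 0.00679).

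Over the whole list of quinone, aldehyde and carbonyl reductases and related enzymes, 7 of 18 tested genes were called higher in the difference and 1 lower. That is 44.4%, where 5.58% of all genes were called, and the list median was 1.31 beside -0.09 over all genes. Like the other lists, it was written with earlier results of these data known, so the share only describes its members. The higher genes were Nqo1, Aox1, Aox3, Ptgr1, Ephx1, Ces1g and Ces2e. Ptgr1, which reduces prostaglandins and leukotrienes, was like Ces2e on the Nrf1 side (1.42 without Nrf1, -0.08 without Nrf2; difference 1.51, limma adjusted p = 0.0115). The lower gene was Akr1b7, an aldose reductase-like enzyme, at -2.41 (adjusted p = 0.0319). In 11 of the 18 genes the Nrf1 effect was above 0 and the Nrf2 effect below it. With slide as a fixed block 0 of the 18 were called, at a median of 0.92. The call of Akr1b7 was lost without Nrf1 Control 2, Nrf1 Control 3, Nrf1 CKO 2, Nrf2 Control 3, Nrf2 KO 2 or Nrf2 KO 3 (adjusted p up to 0.0881), and that of Aox3 without any array but Nrf1 CKO 1 and Nrf2 Control 2 (up to 0.0885).

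Of the glutathione S-transferases, which conjugate electrophiles, 10% were called, where 5.58% of all genes were. Gstm2 was the 1 of 20 called higher, at 2.04 ± 0.44 (SE; limma adjusted p = 0.0193; effects 1.36 and -0.67), and Gsto1 the 1 called lower, at -1.10 (adjusted p = 0.0472). Gsta1 differed by 2.56 (adjusted p = 0.052), Gsta2 by 2.49 (0.0736) and Gstm3 by 1.68 (0.0653), none of them called. For Gsta2 the spread was wide: 1.83, 2.48 and 1.88 in Nrf1 Control, 2.66, 4.48 and 4.41 in Nrf1 CKO, 3.69, 2.41 and 1.39 in Nrf2 Control, and 1.62, 1.93 and 1.82 in Nrf2 KO livers. The median over the 20 glutathione S-transferases was -0.20, and 0.07 after quantile normalization. The call of Gstm2 was lost without Nrf1 CKO 2, Nrf1 CKO 3, Nrf2 Control 3 or Nrf2 KO 1 (adjusted p up to 0.0612), and that of Gsto1 without any array but Nrf1 CKO 1 (up to 0.133). Mu-class genes are close copies, so their probes may share signal.

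For other textbook NRF2 targets the difference was not called, which does not show equal effects. Gclc, the catalytic subunit of glutamate-cysteine ligase, read 3.92, 3.64 and 4.23 in Nrf1 Control, 3.96, 3.97 and 4.12 in Nrf1 CKO, 4.22, 4.40 and 4.21 in Nrf2 Control, and 3.75, 3.77 and 3.93 in Nrf2 KO livers. Only the Nrf2 groups did not overlap, and the difference of 0.54 ± 0.30 (SE) was not called (limma adjusted p = 0.28). Gclm, its modifier subunit, differed by -0.04 ± 0.30 (SE; adjusted p = 0.954), a value whose sign changed with normexp correction, with array weights and without some arrays. Txnrd1, thioredoxin reductase, differed by 0.54 (adjusted p = 0.152), Gstm1 by 1.01 (0.194) and Hmox1, heme oxygenase, by 0.53 (0.417). For Gstm1 neither pair of groups overlapped, with effects of 0.14 and -0.87, and for Txnrd1 only the Nrf2 groups did not. The groups of Gclm and of Hmox1 overlapped in both lines. Srxn1 was the 1 of 19 thioredoxin and peroxide enzymes called. Of 12 genes of glutathione and cysteine supply the methyltransferase Gnmt was called, lower, at -2.26 (limma adjusted p = 0.00986). These shares are 5.26% and 8.33%, beside 5.58% of all genes. Of the 10 NADPH and pentose phosphate enzymes 0 were called.

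**Figure D3:**
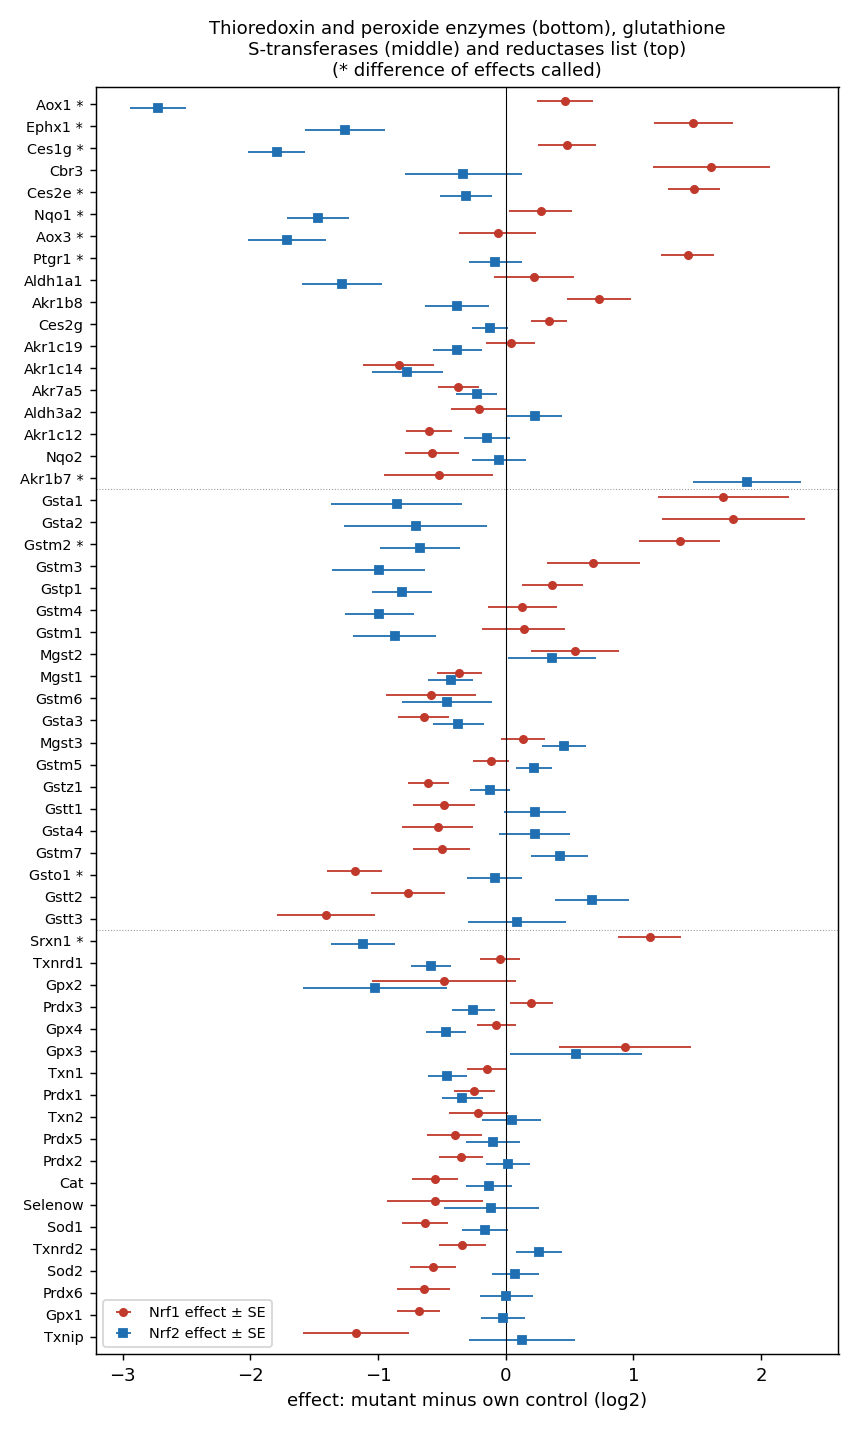
Effect of Nrf1 loss (red circles) and of Nrf2 loss (blue squares), log2 ± SE, for 18 reductases and related enzymes (top), 20 glutathione S-transferases (middle) and 19 thioredoxin and peroxide enzymes (bottom), ordered by their difference, with an asterisk where it was called. Aox1, Ephx1 and Srxn1 show blue far left of red; most of the lower entries have both near 0 or red to the left.

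The proteasome degrades ubiquitin-tagged proteins. In the Nrf1 effect 25 of 38 tested proteasome genes fell, where 10.9% of all genes did, and 0 rose; the effects ran from -0.94 for Pomp to 0.36 for Psmd10 with a median of -0.60, and in the Nrf2 effect 0 were called, with a median of -0.09. The difference was below 0 for 36 of 38, with a median of -0.49 beside -0.09 over all genes, but it was called for only 3, Psma5, Psma6 and Psmd9, or 7.89% where 5.58% of all genes were. The other 22 genes that fell without Nrf1 were not separated from their Nrf2 effect.

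Psma5, an α-ring subunit of the 20S core, read 6.26, 6.43 and 6.09 in Nrf1 Control, 5.59, 5.18 and 5.23 in Nrf1 CKO, 6.16, 6.28 and 6.18 in Nrf2 Control, and 6.00, 6.10 and 6.18 in Nrf2 KO livers. The Nrf1 CKO arrays lay below all others, and the difference was -0.81 ± 0.20 (SE; limma adjusted p = 0.0319). Psma6, from the same ring, read 5.43, 5.41 and 5.02 in Nrf1 Control, 4.61, 4.28 and 4.36 in Nrf1 CKO, 5.21, 5.20 and 5.06 in Nrf2 Control, and 5.19, 5.30 and 5.30 in Nrf2 KO livers, a difference of -0.98 ± 0.23 (SE; adjusted p = 0.0288). Psmd9, an assembly chaperone of the regulatory particle, read 2.46, 2.48 and 2.22 in Nrf1 Control, 2.16, 1.61 and 1.71 in Nrf1 CKO, 2.46, 2.43 and 2.53 in Nrf2 Control, and 2.82, 2.85 and 2.78 in Nrf2 KO livers, a difference of -0.91 ± 0.24 (SE; adjusted p = 0.0402). Its Nrf2 KO arrays all lay above their controls, though that effect of 0.35 was not called (adjusted p = 0.585).

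Just outside the call stood the ATPase Psmc6 at -0.95 (limma adjusted p = 0.053), Psmc1 at -0.70 (0.059) and the lid subunit Psmd12 at -0.81 (0.0686). The catalytic β-subunit Psmb6 fell without Nrf1 (-0.58, adjusted p = 0.023), yet its difference was -0.34 (adjusted p = 0.377) and 0.00 after quantile normalization. The maturation factor Pomp showed effects of -0.94 and -0.32. The 3 calls were lost with slide as a fixed block (adjusted p of 0.526 for Psma5, 0.524 for Psma6 and 0.333 for Psmd9; differences of -0.60, -0.67 and -1.06), on blocking by scan date and without a filter on background. After quantile normalization the adjusted p was 0.109 for Psma5 (-0.51), 0.0765 for Psma6 and 0.0285 for Psmd9, and with normexp the first pair also lost the call, at -0.49 and -0.74; scaling to the array median ended the calls of Psma5 and Psmd9. They were also lost without any single one of Nrf1 Control 1, Nrf1 Control 2, Nrf1 CKO 2, Nrf1 CKO 3, Nrf2 Control 3, Nrf2 KO 1, Nrf2 KO 2 or Nrf2 KO 3, without Nrf2 Control 1 for Psma5 and Psmd9 and without Nrf2 Control 2 for Psmd9 (adjusted p up to 0.114); without Nrf1 CKO 1, 12 of the 38 were called lower.

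**Figure D4:**
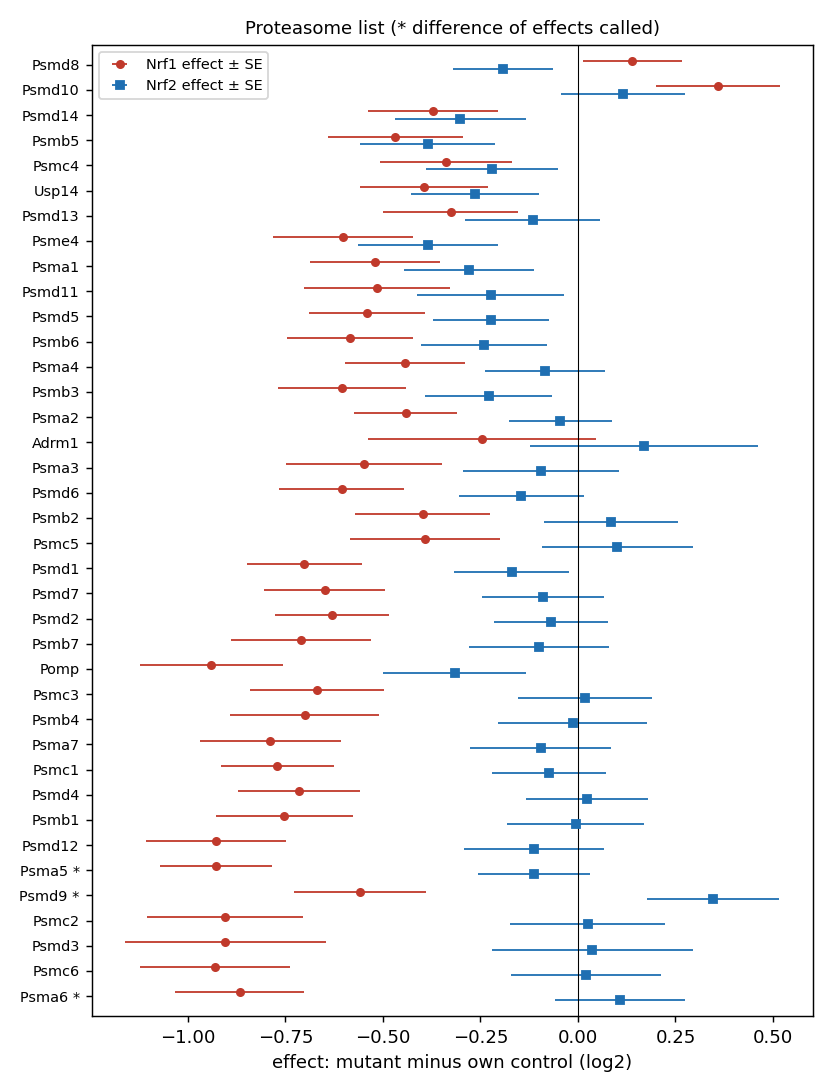
Effect of Nrf1 loss (red circles) and of Nrf2 loss (blue squares), log2 ± SE, for the 38 proteasome genes tested, ordered by their difference, with an asterisk at the 3 called. Red lies left of 0 for 36 of 38 genes, and blue between -0.39 and 0.35.

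Nrf1 loss lowered the metallothionein Mt1 and several lipid genes, for which the Nrf2 effect was not called. Mt1, which binds zinc and copper, read 8.42, 8.20 and 8.01 in Nrf1 Control, 6.16, 5.12 and 4.75 in Nrf1 CKO, 5.11, 5.88 and 6.13 in Nrf2 Control, and 6.62, 6.56 and 5.96 in Nrf2 KO livers. It fell by 2.87 without Nrf1, and the difference was -3.54 ± 0.73 (SE; limma adjusted p = 0.0149), a call that stood without any single array but not in the slide-blocked fit (-5.13, adjusted p = 0.144). The Nrf2 Control arrays lay as low as the Nrf1 CKO arrays, so the controls of the lines differed in this gene. Mt2 ran alike but was not called (-2.86, adjusted p = 0.0506). Lpin1, a phosphatidate phosphatase, read 6.08, 6.08 and 4.71 in Nrf1 Control, 4.26, 2.95 and 2.69 in Nrf1 CKO, 4.51, 4.52 and 5.24 in Nrf2 Control, and 4.96, 4.68 and 4.87 in Nrf2 KO livers, and its difference of -2.40 was not called (adjusted p = 0.0842); that of the coactivator Ppargc1b was -1.85 (adjusted p = 0.059).

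Among 24 tested genes that make fatty acids and triglycerides, 3 were called lower in the difference and 1 higher, with a median of -1.12. The called share was 16.7%, where 5.58% of all genes were called. The lower genes were the desaturases Scd1 (-2.16, limma adjusted p = 0.0291) and Fads1 (-1.33, 0.0371) and the acyltransferase Gpam (-1.53, 0.046); Scd2 was higher (1.39, 0.0472). Of 34 genes of fatty acid oxidation 2 were called lower (5.88%, near the 5.58% called over all genes), Acot3 (-2.69, adjusted p = 0.0181) and Acaa1b (-1.40, 0.0342), with a median of -0.45. These 6 calls were lost without 2 (Acot3: Nrf1 Control 1 and Nrf1 CKO 2) to 10 of the arrays taken 1 at a time, and each of the 6 was lost without Nrf1 Control 1 and without Nrf1 CKO 2. Nrg4, a secreted growth factor of the neuregulin family, was lower without Nrf1, and its call stood without any single array. It read 4.19, 4.22 and 4.16 in control against 2.28, 1.11 and 0.79 in the Nrf1 line. In the Nrf2 line it read 2.29, 2.61 and 2.30 against 2.87, 3.29 and 2.94, so the controls of the lines differed. The difference was -3.42 ± 0.58 (SE, limma adjusted p = 0.00679).

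Genes of cell division had the largest median difference of the 38 lists. In the difference 19 of 26 tested genes were called higher and 0 lower, or 73.1% where 5.58% of all genes were, with a median of 2.69. The medians of the single effects were 2.01 and -0.52. Without Nrf1 20 genes were called higher, and without Nrf2 0 were called. Mki67, the proliferation marker Ki-67, read 0.00, 0.38 and 0.70 in Nrf1 Control, 2.32, 2.39 and 2.21 in Nrf1 CKO, 0.68, 0.80 and 0.84 in Nrf2 Control, and -0.31, -0.06 and -0.92 in Nrf2 KO livers. Neither pair of groups overlapped, and the difference was 3.15 ± 0.54 (SE; limma adjusted p = 0.00782), to which the uncalled Nrf2 effect of -1.21 added.

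The mitotic kinase Aurka differed by 2.94 ± 0.42 (SE; limma adjusted p = 0.00248), reading -0.71, -0.62 and 0.03 in Nrf1 Control, 1.63, 1.64 and 1.91 in Nrf1 CKO, 0.21, -0.53 and 0.33 in Nrf2 Control, and -0.82, -0.65 and -0.87 in Nrf2 KO livers. The survivin gene Birc5 differed by 3.37 (adjusted p = 0.00431) and the transcription factor Foxm1, which drives mitotic genes, by 3.38 (0.00859). The replication licensing genes Mcm2, Mcm4, Mcm5, Mcm6 and Mcm7 were also called, by 1.36 (Mcm7) to 3.07 (Mcm5). The count over the list was 11 without Nrf1 Control 1, 12 without Nrf1 CKO 3, 12 without Nrf2 Control 3 and 0 with slide as a fixed block, where the median was 2.46.

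p53 halts the cell cycle or triggers apoptosis on damage. Of 19 of its targets tested, 9 were called higher in the difference and 0 lower, or 47.4% where 5.58% of all genes were. The median was 1.22, with single-effect medians of 1.08 and -0.14. Cdkn1a, the cell cycle inhibitor p21, was not called (2.19, limma adjusted p = 0.471), and Sesn1 and Ei24 had differences below 0 (-0.41 and -0.40). Phlda3, an inhibitor of AKT, read 0.91, 0.44 and 0.81 in Nrf1 Control, 2.59, 3.67 and 3.93 in Nrf1 CKO, 0.30, 0.56 and 0.83 in Nrf2 Control, and 0.52, 0.66 and 0.69 in Nrf2 KO livers. Only the Nrf1 CKO arrays stood apart, with a difference of 2.61 ± 0.39 (SE; limma adjusted p = 0.00351). The pro-apoptotic Bax differed by 1.11 (adjusted p = 0.0113) and Mdm2, which degrades p53, by 1.22 (0.016). Eda2r was well above background only in Nrf1 CKO livers, where it was at least 12.4-fold higher. Its call in the difference rests on values not well above background in the other groups. The list count was 4 without Nrf1 Control 1, Nrf1 CKO 3, Nrf2 Control 3 or Nrf2 KO 3, 5 without Nrf1 CKO 2 and 0 with slide as a block; Mdm2 lost its call without Nrf1 Control 1 (adjusted p = 0.051).

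**Figure D5:**
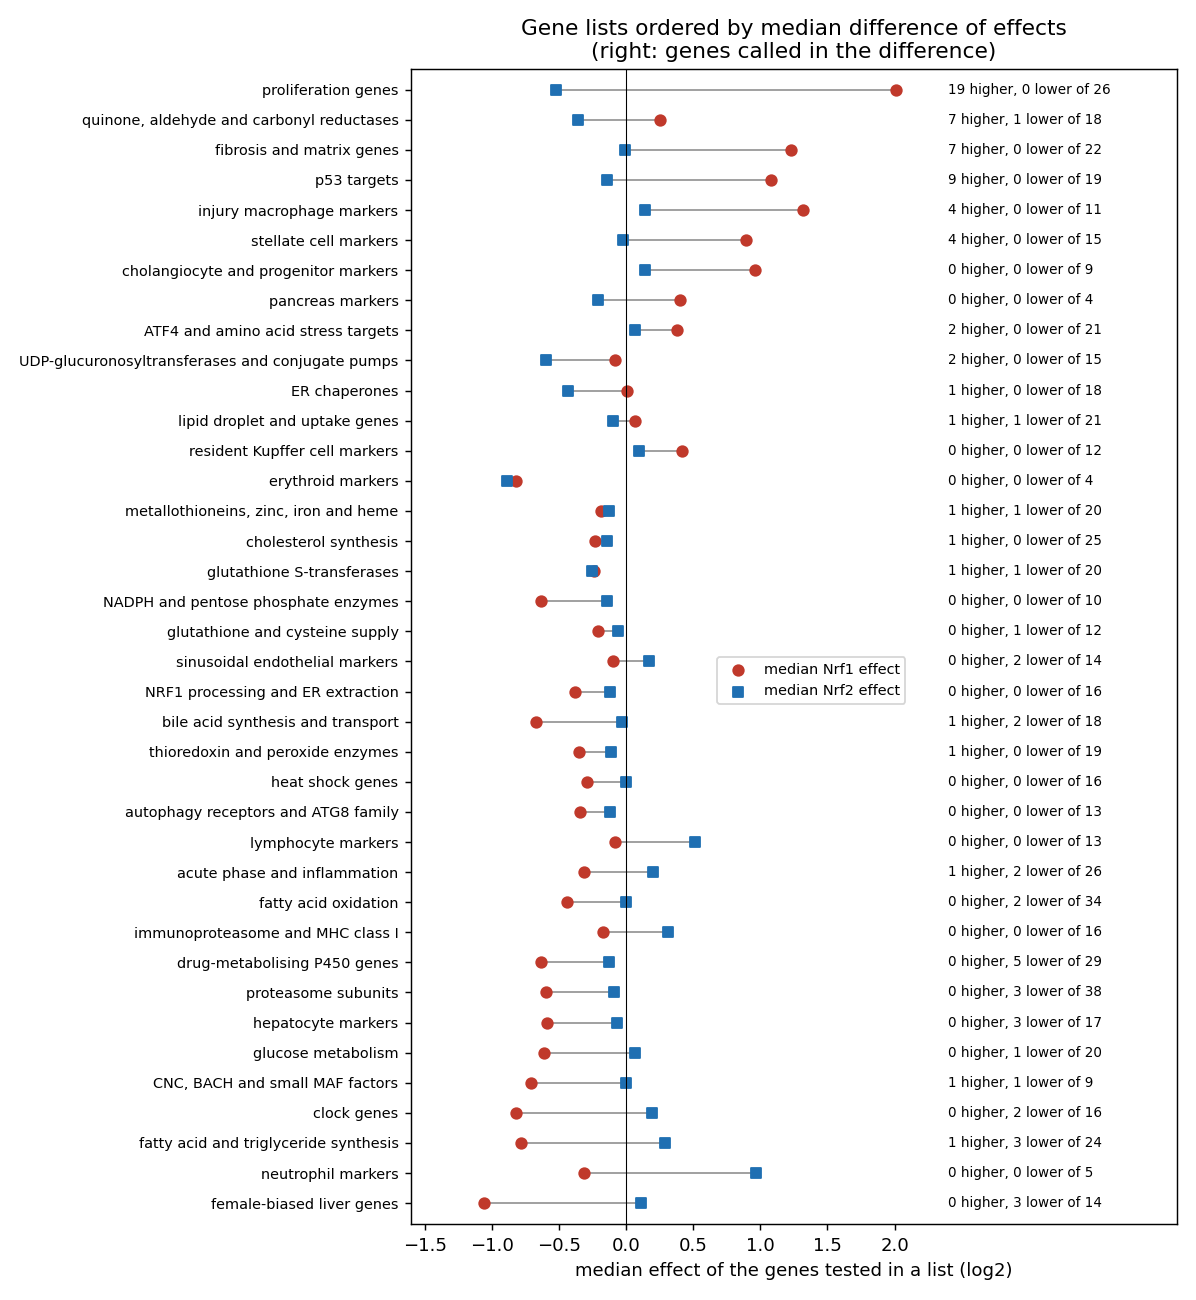
Median Nrf1 effect (red circles) and median Nrf2 effect (blue squares), log2, of the tested genes of 38 lists, ordered by median difference, with the genes called in the difference at the right. Proliferation genes have the widest gap (2.01 against -0.52), and female-biased liver genes close the order at -1.06 against 0.11.

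Markers of cells other than hepatocytes differed between the lines, and in whole liver more cells of a type and more RNA per cell cannot be told apart. Of 11 injury macrophage markers 4 were called higher in the difference, or 36.4% where 5.58% of all genes were called, with a median of 1.18. Trem2, a lipid-sensing receptor of macrophages, read -1.40, -1.02 and -1.12 in Nrf1 Control, 2.18, 3.12 and 3.61 in Nrf1 CKO, -0.99, -0.71 and -1.40 in Nrf2 Control, and -1.77, -1.65 and -1.06 in Nrf2 KO livers. The Nrf1 CKO arrays stood above all others, with a difference of 4.62 ± 0.47 (SE; limma adjusted p = 0.000141). Gpnmb and the elastase Mmp12 were well above background only in Nrf1 CKO livers, at least 13.3-fold and 11-fold higher than in Nrf1 Control. Both genes were below that level in both Nrf2 groups, so the size of their difference has no bound. The limma adjusted p of the difference (0.011 and 6.84e-06) rests on such values. So does the call that Mmp12 kept with slide as a fixed block. Lgals3, galectin-3, was the other, at 2.09 (adjusted p = 0.021), lost without Nrf1 Control 1, Nrf1 CKO 2, Nrf1 CKO 3 or Nrf2 Control 3. Resident Kupffer cell markers gave 0 calls of 12, with a median of 0.22.

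Of 15 stellate cell markers 4 were called higher (26.7%, median 0.95). Of 22 fibrosis and matrix genes 7 were (31.8%, median 1.25), and 0 were lower in either list. Over all genes 5.58% were called. The matrix calls include Mmp12 and Mmp13, which were not well above background outside Nrf1 CKO livers. Lum, lumican, read 2.15, 2.20 and 2.33 in Nrf1 Control, 3.39, 4.18 and 4.35 in Nrf1 CKO, 2.78, 2.64 and 2.47 in Nrf2 Control, and 2.20, 2.76 and 2.17 in Nrf2 KO livers, with a difference of 2.0 ± 0.33 (SE; limma adjusted p = 0.00679). The gelatinase Mmp2 differed by 2.45 (adjusted p = 0.00679) and the collagen IV chain Col4a2 by 1.64 (0.0172). Of 14 sinusoidal endothelial markers, 2 (14.3%) were called lower: Esm1, endocan, at -5.06 (limma adjusted p = 0.00101), and Lyve1 at -2.58 (0.00248). The list median was only -0.24. Its Nrf1 effects had a median of -0.1, with 5 above 0 and 9 below. Esm1 read 1.68, 1.95 and 2.55 in Nrf1 Control, -2.56, -1.89 and -3.37 in Nrf1 CKO, 0.08, -0.92 and -1.34 in Nrf2 Control, and -0.25, -0.48 and -0.29 in Nrf2 KO livers. The controls of the lines differed in Esm1, with means of 2.06 in Nrf1 Control and -0.73 in Nrf2 Control. Its difference was not called with scan date as a fixed block (-3.78, limma adjusted p = 0.0644) or with slide (-4.13). The matrix count was 3 without Nrf1 Control 1, Nrf1 CKO 2 or Nrf1 CKO 3 and 12 without Nrf1 CKO 1; the stellate count was 1 without Nrf1 Control 1, Nrf1 CKO 2, Nrf1 CKO 3, Nrf2 Control 1, Nrf2 KO 1, Nrf2 KO 2 or Nrf2 KO 3, 2 without Nrf1 Control 3 and 8 without Nrf1 CKO 1.

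Of 17 hepatocyte markers 3 were called lower and 0 higher, or 17.6% where 5.58% of all genes were, with a median of -0.50. They were Hpd, of tyrosine breakdown, at -1.91 (limma adjusted p = 0.0185), the urea cycle enzyme Ass1 at -2.12 (0.0388) and the transcription factor Cebpa at -1.08 (0.0292). Hpd read 7.83, 7.78 and 7.16 in Nrf1 Control, 6.66, 6.06 and 5.70 in Nrf1 CKO, 7.64, 7.53 and 7.43 in Nrf2 Control, and 8.0, 8.05 and 7.93 in Nrf2 KO livers. Neither pair of groups overlapped, and the Nrf2 effect of 0.46 was not called. The mean level of the whole hepatocyte list was 6.80 to 7.11 on the Nrf1 Control arrays and 6.02 to 6.64 on the Nrf1 CKO arrays, while that of the injury macrophage list was -0.40 to 0.24 and 1.32 to 2.54. On the Nrf2 Control arrays these means were 7.06 to 7.11 and -0.28 to -0.15, and on the Nrf2 KO arrays 7.03 to 7.20 and -0.22 to -0.00. The part that these marker shifts have in the other results was not tested. The hepatocyte count was 0 without Nrf1 Control 1, Nrf1 CKO 2 or Nrf1 CKO 3, 1 without Nrf2 Control 1, Nrf2 Control 3 or any Nrf2 KO array, and 6 without Nrf1 CKO 1. Among the alternatives other than a left-out array, Hpd lost its call only with slide as a fixed block. Ass1 also lost it with scaling to the array median and without a filter on background. Cebpa lost it in 7 of 16, among them quantile normalization, scaling to the array median, normexp and scan date.

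Among drug-metabolising cytochromes P450, 5 of 29 were called lower and 0 higher: Cyp2b9, Cyp2b10, Cyp2b13, Cyp2c38 and Cyp2j5. That is 17.2%, where 5.58% of all genes were called. The list median was -0.48, and -0.03 after quantile normalization. Cyp2b10, a phenobarbital-inducible enzyme, read 2.35, 1.5 and 0.56 in Nrf1 Control, 0.20, -1.02 and -1.62 in Nrf1 CKO, 0.62, -0.22 and 0.10 in Nrf2 Control, and 1.01, 1.73 and 1.15 in Nrf2 KO livers. The groups did not overlap in either line, in opposite directions, and the difference was -3.41 ± 0.70 (SE; limma adjusted p = 0.0147), called without any single array. Cyp2b9 differed by -2.47 (adjusted p = 0.0181), lost without Nrf1 Control 1, Nrf1 CKO 2 or Nrf1 CKO 3, as were, among others, the calls of Cyp2b13, Cyp2c38, Cyp2j5 and Fmo2. The Cyp2b genes are close copies, so their probes may share signal. Of 14 female-biased liver genes, 3 (21.4%) were called lower, Cyp2b9, Cyp2b13 and Fmo2 (-1.74, limma adjusted p = 0.0414), with a median of -1.44.

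Srsf3, an SR-family splicing factor, was the 1 gene with both effects called in opposite directions. It read -2.24, -2.24 and -2.43 in Nrf1 Control, -1.65, -1.62 and -1.74 in Nrf1 CKO, -1.11, -1.21 and -1.40 in Nrf2 Control, and -2.0, -2.22 and -2.06 in Nrf2 KO livers. It rose by 0.64 without Nrf1 (limma adjusted p = 0.00617), fell by 0.86 without Nrf2 (0.0182), and differed by 1.49 ± 0.19 (SE; adjusted p = 0.00101), or by 0.65 with normexp, also called. The difference was called without any single array and missed the threshold in the slide-blocked fit (1.84, adjusted p = 0.108). The opposed class was empty without Nrf2 Control 1, Nrf2 KO 1 or Nrf2 KO 2.

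Among the 6 highest differences of genes well above background on all 12 arrays was Akr1c18, a hydroxysteroid dehydrogenase that breaks down progesterone, at 5.58 ± 0.78 (SE; limma adjusted p = 0.00211). It read -3.14, -3.70 and -2.90 in Nrf1 Control, -0.11, 1.21 and 2.46 in Nrf1 CKO, -1.09, 0.09 and -0.83 in Nrf2 Control, and -2.21, -1.07 and -1.99 in Nrf2 KO livers. Its Nrf1 CKO arrays stood apart from their controls and the Nrf2 groups overlapped. The controls of the lines differed, with means of -3.25 in Nrf1 Control and -0.61 in Nrf2 Control. Smpd3, a neutral sphingomyelinase, differed by 4.59 (adjusted p = 0.0117) and the phosphatase Cdkn3 by 4.37 (0.0117). Spink1 and Ly6d ranked first, but read 3.13 and 2.62 on Nrf2 Control 1 against -1.22 and 0.44 at most on the other Nrf2 Control arrays. At the low end, after Esm1, stood Unc79, an auxiliary subunit of the NALCN channel, at -3.94 (adjusted p = 0.0358), whose call was lost without any array but Nrf1 Control 2, Nrf1 CKO 1 and Nrf2 Control 2, and which was -1.75 and not called with normexp. Vpreb3, known from pre-B cells, followed at -3.63 (adjusted p = 0.0103).

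Of the remaining lists, ATF4 and amino acid stress targets had 2 of 21 called higher (9.52%), Atf3 and Mthfd2. Mthfd2 was well above background on only 3 of the 12 arrays, so its call rests largely on values not well above background. UDP-glucuronosyltransferases and conjugate pumps had 2 of 15 higher (13.3%), Ugt2b35 and Abcg2. Over all genes 5.58% were called. Cry2, a repressor of the circadian clock, was called lower, at -1.51 (limma adjusted p = 0.0132). The calls of Atf3, Ugt2b35 and Cry2 stood without any single array; those of Mthfd2 and Abcg2 were each lost without Nrf1 Control 1, Nrf1 CKO 2, Nrf1 CKO 3 and other arrays taken 1 at a time. Acute phase genes had 2 of 26 lower and 1 higher, bile acid genes 2 of 18 lower and 1 higher, and lipid droplet genes 1 of 21 each way. The called shares were 11.5%, 16.7% and 9.52%, beside 5.58% of all genes. Leaving out 1 array gave 1 to 3 lower and 0 to 2 higher acute phase genes, 0 to 4 lower and 0 higher bile acid genes, and 0 to 1 lower and 0 to 3 higher lipid droplet genes. ER chaperones had 1 of 18 higher, cholesterol synthesis genes 1 of 25 higher and glucose metabolism genes 1 of 20 lower, shares of 5.56%, 4% and 5% that do not exceed the 5.58% of all genes called. Autophagy, heat shock, immunoproteasome and NRF1 processing genes had 0 called, as had cholangiocyte, lymphocyte, neutrophil, erythroid and pancreas markers, lists of 4 to 16 tested genes. Slc7a11, the cystine carrier, was not tested, since it was not well above background on all arrays of any group.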

How the data were processed

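Liver RNA of 18 samples was labelled with Cy3 and hybridised to 1-colour Agilent arrays, per the labels' protocols. Signals were extracted with Agilent Feature Extraction 10.7.3.1, per the submitters' processing notes. The deposited intensity values are processed signals, background-subtracted and not normalized between arrays, per the file headers; the series' own value table held the same numbers. Median spot and background intensity values, as deposited, served an alternative.

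Control and outlier-flagged spots were left out, log2 signals of a probe's spots were averaged, and the log2 of the array's 75th percentile was subtracted. A probe was kept if well above background (at least 50% of its spots) on all 3 arrays of a group; the brightest probe stood for a gene, and 70% of arrays had to have a value. Group means of all 18 arrays were fitted with limma 3.58.1 in R 4.3.3 (lmFit, eBayes), and the difference of effects was a contrast of 4 groups, with Benjamini-Hochberg adjustment over 17721 genes and a threshold of 0.05. An "at least" fold sets the bright group against the lowest signal well above background on each array of the dim group, or the dim probe's own where higher. The fit was tested on simulated data. The number of arrays limits the precision.

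The comparison and the gene lists were chosen with earlier results of these data known. Named genes were a fixed set of 20; the 6 highest and lowest differences above background on all 12 arrays and the 4 highest and lowest among the other called genes; up to 6 of each class; and up to 4 of each list with at least 3 called members. Genes named beyond this rule, among them members of shorter counts, were chosen after their values were seen. Alternatives covered normalization, background, filter, probe summary, samples in the fit, trend, array weights, replicate number, slide, scan date and each array left out. Gene start windows came from RefSeq on GRCm38.p6; no protein sequence was used here. A called list member is not reported here.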

Additional observations from a re-analysis of the deposited data

Results flagged for a closer look

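The effects of the same kind of contrast, mutant against its own control, differed between the lines by the test of the difference itself for 988 genes. Among them Srsf3, the splicing factor, had both effects called in opposite directions, with a difference of 1.49. Its 3 Nrf1 CKO arrays all lay above their controls and its 3 Nrf2 KO arrays all below. The controls of the lines differed in this gene, with means of -2.31 in Nrf1 Control and -1.24 in Nrf2 Control. Strain, slide and scan date differ between the lines, and their part in these results was not tested beyond the values with slide and date as blocks.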

How the results depend on the processing

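Slides limit these results most: with slide as a fixed block the Nrf1 effect was called for 65 genes and the difference for 8 (5 higher, 3 lower; 2 on the Nrf1 side, 1 on the Nrf2 side, 0 opposed), and with scan date as a fixed block the Nrf2 effect for 7 and the difference for 201 (112 higher, 89 lower; 4 on the Nrf1 side, 0 opposed). Fitting the 12 arrays alone gave 30 genes for the Nrf2 effect and 1842 for the difference (899 higher, 943 lower; 1206 on the Nrf1 side, 16 on the Nrf2 side, 6 opposed). Array quality weights gave 8165 for the Nrf1 effect, 75 for the Nrf2 effect and 5073 for the difference (2064 higher, 3009 lower; 3890, 38 and 14 by class). Without a filter on background the Nrf1 effect had 2117 and the difference 314 (199 higher, 115 lower; 148 on the Nrf1 side, 0 opposed). Scaling to the array median gave 22 for the Nrf2 effect and 572 for the difference (345 higher, 227 lower; 282 on the Nrf1 side), and moved the median Nrf1 effect of all genes from -0.09 to -0.20. An intensity trend gave 21 for the Nrf2 effect, 12 on the Nrf2 side and 3 opposed; normexp gave 982 on the Nrf1 side and 4 opposed; quantile normalization gave 3 opposed, and the filter on all 12 arrays 2. Slide as a random block gave 1076 for the difference, which held all 988 of the main fit. Its block correlation was -0.016, so that fit is nearly the unblocked one and cannot show that the calls are free of slide effects. The causes were not tested. Replicate numbers did not pair the samples: same-numbered deviations correlated at 0.127, 0.121 and -0.0171 in the Nrf1 line and -0.0775, -0.0512 and 0.0525 in the Nrf2 line. The replicate block gave 5 for the Nrf2 effect and 658 for the difference, 544 of them among the 988 (271 lower; 401 on the Nrf1 side, 3 on the Nrf2 side, 0 opposed); under it 18 of the 68 called genes named by rule lost the call, among them Nqo1, Mt1, Psma5, Psma6 and Psmd9.

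Leaving out 1 array gave 939 (without Nrf1 CKO 3) to 4160 (without Nrf1 CKO 1) genes for the Nrf1 effect, 6 (without Nrf2 KO 1) to 17 (without Nrf1 CKO 1) for the Nrf2 effect, and 294 to 2131 for the difference. Of the latter 198 to 949 were higher and 96 to 1182 lower, with 136 to 1554 on the Nrf1 side, 4 to 9 on the Nrf2 side and 0 to 2 opposed. The difference of Psmb6 was 0.00 after quantile normalization. That of Gclm, main value -0.04, was 0.02 with normexp, 0.03 with array weights, -0.23 without Nrf1 Control 2, 0.17 without Nrf1 Control 3, 0.01 without Nrf1 CKO 2 and without Nrf1 CKO 3, and 0.14 without Nrf2 Control 2.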
